A study of Mus musculus with 8 samples.

Results

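The RNAs described here are the noncoding RNAs with a RefSeq accession (NR_) that were measured above background in every sample of a mouse granulocyte progenitor study. Members were the non-control array probes annotated with such an accession, outside chromosomes X and Y, whose spot was marked well above background on all 8 arrays. This gave 396 of 55681 probes, for 334 of 37147 genes and unmatched identifiers on the array. They came from 837 probes with an NR_ accession outside X and Y, of which 306 were above background on no array and 135 on 1 to 7 arrays. The accession matched a gene in the RefSeq table for 353 of the 396 probes, which stand for 299 named RNAs, and 43 probes with 35 accessions matched no gene, so that they were counted but not named and their chromosome was not known. The members were selected on the detection flags of all arrays, so their presence on every array is no finding, and RNAs missing from any one array are not among them. The rule does not use the differences between groups that are tested below, although it was set with earlier results of these data known.

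Granulocyte progenitors (GPs) came from mouse bone marrow and were sorted into Flt3+ and Flt3- cells, Flt3 being a cytokine receptor of early progenitors. The 4 groups were Flt3+ GPs and Flt3- GPs of wild-type (WT) mice and Flt3+ GPs and Flt3- GPs of mice labelled Irf8KO, deficient in the transcription factor Irf8, all primary isolated cells that were not cultured or treated according to the labels. Each group had 2 one-colour arrays, from 2 experiments described as independent. The labels name neither the mutant allele nor the age or number of animals behind a sample, so the spread between the 2 arrays of a group may be partly technical.

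Noncoding RNAs act without being translated. Long noncoding RNAs (lncRNAs) such as Malat1 and Neat1 stay in the nucleus, where Malat1 gathers in splicing factor speckles and Neat1 forms the scaffold of paraspeckles. Host transcripts of the Snhg type carry small nucleolar RNAs (snoRNAs), the guides of ribosomal RNA modification, in their introns, and Rmrp is the RNA of the RNase MRP enzyme that processes ribosomal RNA precursors. Transcribed pseudogenes are copies of coding genes that lost the coding capacity of the parent. Irf8 directs myeloid progenitors towards monocytes and dendritic cells and restrains neutrophil formation, and it often binds DNA together with the ETS factor PU.1.

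Promoter windows, from 250 bases before to 50 after the annotated start, were present in the RefSeq table (GRCm38.p6) for 163 of the 299 named RNAs, as 185 windows of 300 bases. The 4 windows below belong to RNAs whose difference between genotypes itself differed between the populations, and they overlap no protein-coding gene of the table. Each is printed 5′ to 3′ on the strand of its RNA, and capitals mark matches on either strand to the 7 motifs searched. The window of Malat1 lies at chr19:5802623-5802922 on the minus strand, that of Mirt1 at chr19:53464747-53465046 on the minus strand, that of 2810408I11Rik at chr1:64690610-64690909 on the minus strand and that of Lockd at chr6:134928842-134929141 on the plus strand.
Malat1: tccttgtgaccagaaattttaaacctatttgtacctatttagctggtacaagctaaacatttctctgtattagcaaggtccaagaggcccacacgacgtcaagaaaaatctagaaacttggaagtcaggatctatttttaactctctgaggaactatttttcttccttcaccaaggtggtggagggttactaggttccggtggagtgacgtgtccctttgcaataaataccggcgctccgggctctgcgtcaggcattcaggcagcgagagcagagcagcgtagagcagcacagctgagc
Mirt1: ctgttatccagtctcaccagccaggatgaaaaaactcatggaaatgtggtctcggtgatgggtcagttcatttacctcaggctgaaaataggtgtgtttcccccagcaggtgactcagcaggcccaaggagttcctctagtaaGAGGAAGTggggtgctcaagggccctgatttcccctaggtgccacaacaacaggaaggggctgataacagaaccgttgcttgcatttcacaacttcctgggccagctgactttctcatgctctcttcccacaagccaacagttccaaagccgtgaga
2810408I11Rik: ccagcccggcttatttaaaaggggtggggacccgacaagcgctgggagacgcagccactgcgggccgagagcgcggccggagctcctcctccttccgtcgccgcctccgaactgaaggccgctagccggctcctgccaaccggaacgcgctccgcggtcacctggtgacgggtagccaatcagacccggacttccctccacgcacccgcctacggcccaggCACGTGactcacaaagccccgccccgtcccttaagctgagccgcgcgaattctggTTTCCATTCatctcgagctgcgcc
Lockd: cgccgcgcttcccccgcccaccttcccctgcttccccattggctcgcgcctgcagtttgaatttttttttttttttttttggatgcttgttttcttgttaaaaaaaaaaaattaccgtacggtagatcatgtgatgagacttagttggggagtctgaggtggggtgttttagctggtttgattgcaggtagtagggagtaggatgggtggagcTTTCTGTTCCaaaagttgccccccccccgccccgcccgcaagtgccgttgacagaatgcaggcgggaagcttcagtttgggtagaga
The Mirt1 window held 1 match to the PU.1-type motif GAGGAAGT, which 2.16% of the member windows and 3.20% of all 32851 windows held. The Lockd window held 1 stretch that matched the composite of an ETS and an IRF site, GGAANNGAA, and overlapped a match to the interferon response motif GAANNGAAA, both on the opposite strand. The composite occurred in 7.57% of member windows and 8.24% of all windows, and the interferon response motif in 4.86% and 7.52%. The 2810408I11Rik window held 1 E-box, CACGTG, as did 11.4% of member windows and 7.15% of all windows, and 1 match to the interferon response motif in the part after the start. None of the 7 motifs matched in the Malat1 window, which says only that these letters are not in it. The other motifs searched were the C/EBP-type motif TTGCNNAA (5.41% of member windows and 10.8% of all), the GATA-type motif AGATAAG (1.62% and 3.04%) and the TATA box TATAAA (14.1% and 13.6%). The composite and the interferon response motif share letters, so that 1 stretch can match both. Both were first searched in a form 1 base longer and were shortened after the matches had been seen. The composite match in the Lockd window was present with the longer form too, while the interferon response matches in the Lockd and 2810408I11Rik windows were present only with the shorter one. A match is a description of letters and not a binding site.

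Across the arrays, 54.9% to 60.1% of the 59305 non-control spots were flagged well above background, with 0 saturated spots. All arrays were on 1 slide, with the WT arrays in its first row and the Irf8KO arrays in its second, and with Flt3+ and Flt3- arrays in different columns, so that group and position on the slide cannot be told apart. Values are log2 of the processed signal relative to the array's 75th percentile. Flt3 was at 6.06 and 6.04 on the WT Flt3+ arrays, 1.50 and 1.48 on the WT Flt3- arrays, 6.11 and 6.11 on the Irf8KO Flt3+ arrays and 2.54 and 2.51 on the Irf8KO Flt3- arrays, so the sorted populations separated. The Irf8 probe read 5.65 and 5.70 (WT Flt3+), 4.66 and 4.69 (WT Flt3-), 6.49 and 6.48 (Irf8KO Flt3+) and 5.47 and 5.36 (Irf8KO Flt3-). Within each population it was higher on the arrays labelled Irf8KO. Where the probe lies relative to the deleted part is not stated in the labels, and the genotype is therefore written as the label throughout. All 10 measured granulocyte progenitor markers were above background on every array. Their summed level, in multiples of the array's 75th percentile, was 752 to 855 in WT Flt3+ and 2089 to 2198 in WT Flt3- cells. It was 1211 to 1227 in Irf8KO Flt3+ and 2431 to 2666 in Irf8KO Flt3- cells. Markers of other lineages also moved with the groups. The summed level of the 11 lymphoid markers was 134 to 140 in WT Flt3+ and 233 to 250 in Irf8KO Flt3+ against 16.5 to 16.6 and 18.5 to 18.8 in the Flt3- groups (in multiples of the array's 75th percentile), with 7 of 11 above background on all arrays. The 10 erythroid markers summed to 43.3 to 44.1 in WT Flt3+, 19.6 to 19.9 in WT Flt3-, 3.37 to 3.54 in Irf8KO Flt3+ and 3.83 to 3.96 in Irf8KO Flt3-, with 6 of 10 above background on all arrays. The 10 eosinophil, basophil and mast cell markers summed to 16.1 to 16.6, 133 to 134, 6.69 to 6.97 and 65.6 to 66.0 in the same order of groups, with 9 of 10 above background on all arrays. In that order the 8 stem and multipotent progenitor markers summed to 277 to 279, 121 to 124, 240 to 249 and 85.5 to 86.5, the monocyte markers to 71.6 to 73.6, 64.2 to 64.9, 123 to 125 and 128 to 129, and the megakaryocyte and platelet markers to 12.2 to 12.8, 6.90 to 6.91, 3.91 to 4.16 and 4.74 to 4.74. The dendritic cell markers summed to between 187 and 241 on all arrays, but a sum weighs bright markers most. In the test described below, 7 of the 10 tested were called higher and 0 lower in WT Flt3+ than in WT Flt3- cells. Over all probes 19.6% were higher and 26.9% lower. The same counts held between Irf8KO populations, against 15.1% and 18.7%. The median log2 differences of the dendritic cell markers were 2.04 in WT and 0.96 in Irf8KO. Other sums need the same caution. Of 7 monocyte markers tested, 3 were higher and 4 lower in Irf8KO than in WT Flt3- cells (median -0.39). In Flt3+ cells 4 were higher and 2 lower (0.26). Over all probes the shares were 15.5% and 17.1%, and 8.72% and 7.91%. Of 9 erythroid markers, 4 were higher and 3 lower in WT Flt3+ than in WT Flt3- cells (-0.02). The part of these differences in the results below was not tested, and in sorted bulk RNA fewer cells of a type and less RNA per cell cannot be told apart.

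From 55 to 186 of the noncoding probes were called in a comparison. Differences were tested with limma on 32673 probes, and a probe was called at a Benjamini-Hochberg adjusted p under 0.05 over all of them. Between Flt3+ and Flt3- cells of WT mice, 186 of the 396 probes were called (47.0%), 90 higher and 96 lower in Flt3+ cells, while 46.6% of all probes tested were called, 19.6% higher and 26.9% lower. The split of the members was 80 higher and 106 lower with the scaling of the deposited series table, and 70 and 100 after normexp background correction. Between Irf8KO Flt3+ and Irf8KO Flt3- cells, 153 were called (38.6%, against 33.9% of all probes), 52 higher and 101 lower (15.1% and 18.7% of all probes). The genotype difference was called for 55 probes in Flt3+ cells (13.9%, against 16.6% of all probes), 19 higher and 36 lower in Irf8KO (8.72% and 7.91%), and this split was 25 higher and 28 lower with the scaling of the deposited series table. In Flt3- cells the genotype difference was called for 141 probes (35.6%, against 32.5%), 79 higher and 62 lower in Irf8KO (15.5% and 17.1%). That split was 72 and 72 with the series table's scaling. The interaction, the genotype difference in Flt3+ minus that in Flt3- cells, was called for 78 probes (19.7%, against 17.5%), 28 positive and 50 negative (10.2% and 7.35%), or 37 and 43 with the series table's scaling. These shares lie near the background. Among the 28285 probes that were, like the members, above background on all 8 arrays, 50.5%, 37.0%, 20.0%, 38.0% and 22.5% were called in the same order, when that set alone was fitted, and 194, 159, 70, 161 and 94 members.

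Of the larger differences, at least 2-fold and called between WT populations were 28 of the 396 members (24 higher and 4 lower in Flt3+ cells), against 10.7% of all probes. Between Irf8KO populations there were 18 (14 higher and 4 lower), against 8.29%. The direction of these larger differences was not counted over all probes, so the members' splits have no background beside them. For genotype the counts were 5 in Flt3+ cells against 2.94% of all probes, and 8 in Flt3- cells against 3.08%, and for the interaction 6 against 2.46%. The background holds probes that were detected in some groups and not in others, which the choice of members leaves out. By class, 85 of 190 probes of other lncRNAs (44.7%) were called between WT populations, 56 of them higher in Flt3+ cells. So were 65 of 119 probes of transcribed pseudogenes (54.6%), 43 of them lower. Over all probes 46.6% were called, 19.6% higher and 26.9% lower. These probes stand for 166 other lncRNAs and 91 pseudogenes, and probes of the same RNA are not independent. Of 15 opposite-strand RNAs 3 were called, of 11 snoRNA host probes 6 and of 10 structural or small RNA probes 3. The class counts were not repeated with other scalings.

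**Figure D1:**
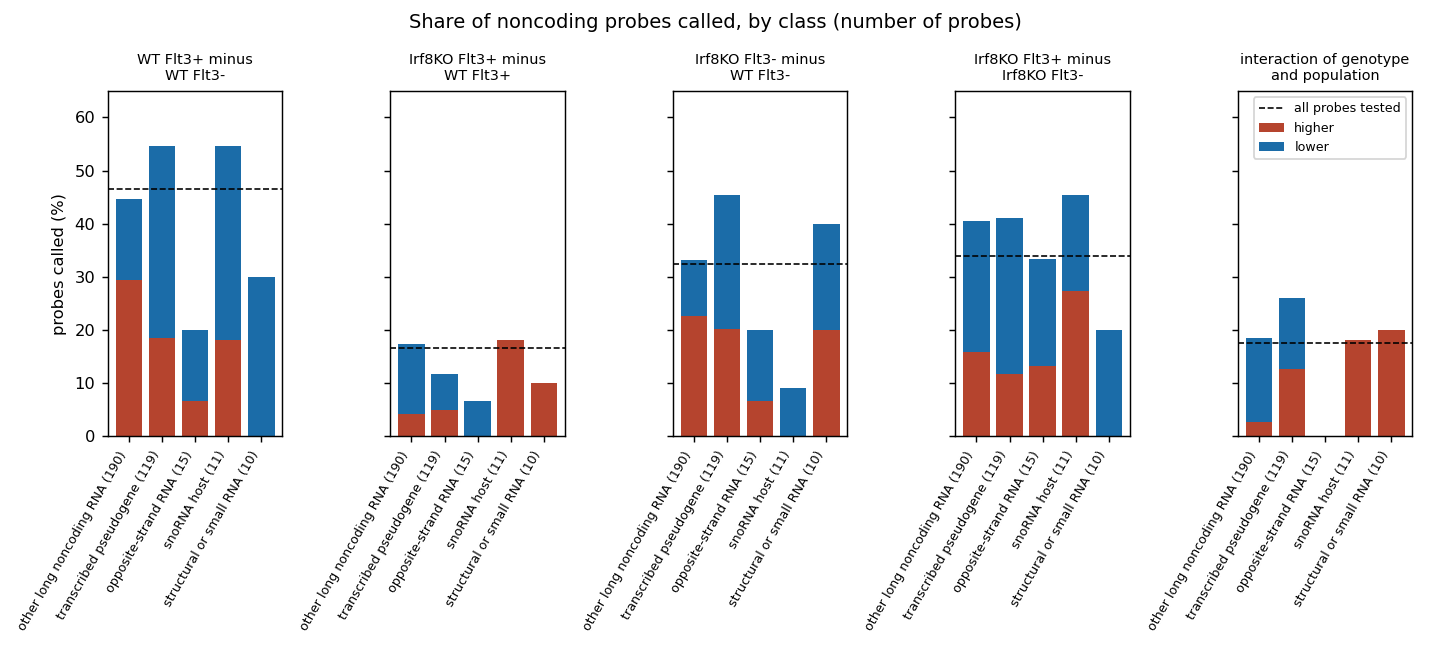
Share of noncoding probes called at an adjusted p under 0.05 (y axis, percent) for 5 classes of noncoding RNA (x axis, number of probes in brackets) in each comparison; red is the share higher in the group named first, blue the share lower, and the dashed line the share of all 32673 probes tested. Other lncRNAs were called higher more often than lower between WT populations (56 against 29 probes), and pseudogenes lower more often than higher (43 against 22). Over all probes tested 19.6% were higher and 26.9% lower there, and several probes can stand for the same RNA.

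The largest log2 difference between Flt3+ and Flt3- GPs of WT mice among the members was that of Gm4759, a transcribed pseudogene. Its first probe read 0.84 and 0.82 on the WT Flt3+ arrays and -1.58 and -1.54 on the WT Flt3- arrays. The log2 difference was 2.39 ± 0.0648 (SE), a 5.23-fold higher signal in Flt3+ cells (adjusted p = 1.07e-05), and a second probe of the same RNA gave 1.74 ± 0.104. The Irf8KO arrays had the same order, with 0.40 and 0.46 in Flt3+ and -1.50 and -1.34 in Flt3- cells. Speer1, whose gene is listed as protein-coding although the probe's accession is a noncoding one, read -0.98 and -1.04 in WT Flt3+ against -3.44 and -3.07 in WT Flt3- cells, a 4.74-fold difference (adjusted p = 9.85e-05). In Irf8KO cells it differed 4.80-fold in the same direction.

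Lppos, transcribed opposite to the gene of the LIM protein Lpp, read -0.89 and -0.78 in WT Flt3+ and -2.79 and -2.49 in WT Flt3- cells. Its difference was 3.51-fold in WT (adjusted p = 0.000112) and 2.41-fold in Irf8KO cells. Peg13, an imprinted lncRNA expressed from the paternal allele, read 4.22 and 4.18 in WT Flt3+ and 2.78 and 2.76 in WT Flt3- cells, and 3.86 and 3.84 against 2.52 and 2.60 in the Irf8KO groups. It was 2.69-fold higher in WT Flt3+ cells (adjusted p = 2.1e-05) and 2.46-fold higher in Irf8KO Flt3+ cells, and no Flt3+ array overlapped a Flt3- array. The same holds for the sums of the lymphoid markers (134 to 250 against 16.5 to 18.8) and of the stem and multipotent progenitor markers (240 to 279 against 85.5 to 124). Sums of the granulocyte progenitor markers (752 to 1227 against 2089 to 2666) and of the eosinophil, basophil and mast cell markers (6.69 to 16.6 against 65.6 to 134) separated the other way. The part of these markers in the population differences was not tested. The other RNAs among the 10 highest were 5830428M24Rik (log2 difference 1.43), Gm12216 (1.42), Gm11346 (1.42), 4930426L09Rik (1.40) and Gm11110 (1.39). The Gm11346 difference was 0.24 and no longer called after normexp background correction. With the same correction the differences kept the call but shrank to 1.40 (Speer1), 0.97 (the second Gm4759 probe), 0.61 (5830428M24Rik), 0.46 (4930426L09Rik) and 0.73 (Gm11110).

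The members at least 2-fold lower in WT Flt3+ cells were 4930562F07Rik, Hmga2-ps1, 2810408I11Rik and 1700086O06Rik. 4930562F07Rik read -2.81 and -2.72 in Flt3+ against -1.14 and -1.02 in Flt3- cells, which made it 3.21-fold lower (adjusted p = 0.00016). Hmga2-ps1, a pseudogene of the chromatin protein gene Hmga2, read -1.87 and -1.88 against -0.23 and -0.16, also 3.21-fold lower (adjusted p = 5.67e-05). 2810408I11Rik read 0.28 and 0.38 against 1.59 and 1.61, a log2 difference of -1.27 (adjusted p = 7.48e-05), and 1700086O06Rik had -1.02 (adjusted p = 0.00276), which was -0.45 after normexp. In Irf8KO cells the members at least 2-fold lower in Flt3+ cells were Hmga2-ps1 (-1.57), Gm16386 (-1.40), 4930562F07Rik (-1.31) and 9330179D12Rik (-1.21). The Gm16386 call was lost when any one of the 4 Irf8KO arrays was left out, and with no filter on dim probes. After normexp Gm16386 had -0.54 and 9330179D12Rik -0.44.

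**Figure D2:**
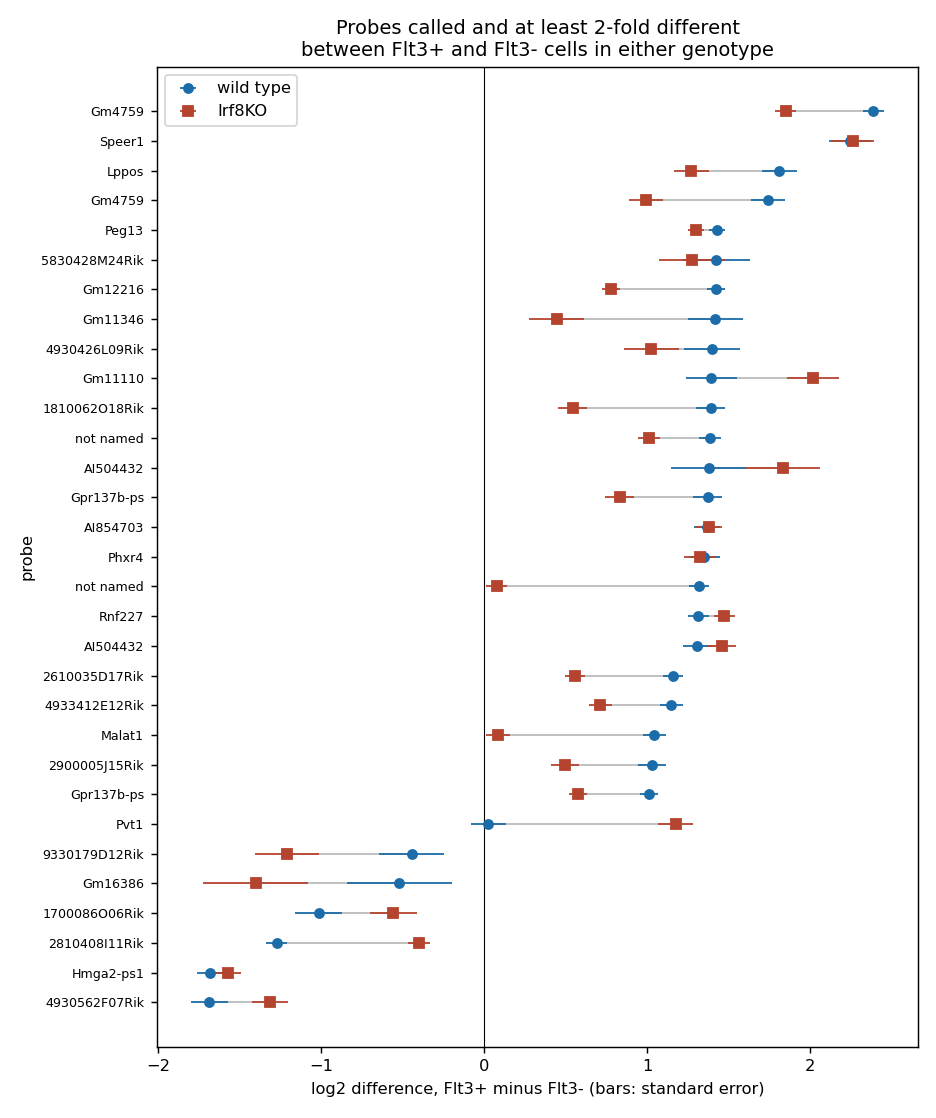
Log2 difference between Flt3+ and Flt3- cells (x axis) in WT (blue circles) and Irf8KO (red squares) for the 31 probes (y axis) called and at least 2-fold different in either genotype; bars are standard errors from limma, 2 arrays a group, and an RNA with several probes appears once for each. All 31 differences have the same sign in both genotypes, and Malat1 and Pvt1 are among those whose difference is large in 1 genotype and near 0 in the other.

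The WT and the Irf8KO population comparisons use no array in common. The members called in both made up 57.5% of the 186 called in WT and 69.9% of the 153 called in Irf8KO. Of the members called in both, 95 had the same direction. Over all probes tested the shares were 55.2% and 76.0%, and 7934 of the 8405 called in both had the same direction. Over the 396 probes the differences correlated with r = 0.66, against 0.78 over all probes tested. These are correlations across probes, which are not independent replicates.

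The nuclear lncRNAs Malat1 and Neat1, neighbours on chromosome 19, both had a called interaction of negative sign. Malat1 read 2.33 and 2.39 in WT Flt3+, 1.32 and 1.31 in WT Flt3-, 1.89 and 1.98 in Irf8KO Flt3+ and 1.93 and 1.77 in Irf8KO Flt3- cells. The WT groups did not overlap, and the Irf8KO groups did. Malat1 was 2.06-fold higher in Flt3+ than in Flt3- cells of WT mice (adjusted p = 0.000192), while the log2 difference in Irf8KO cells was 0.09 ± 0.072 (adjusted p = 0.405). It was 1.45-fold higher in Irf8KO than in WT Flt3- cells (adjusted p = 0.0046), and the interaction was -0.96 ± 0.102 (adjusted p = 0.00715). The log2 genotype difference of -0.42 in Flt3+ cells (adjusted p = 0.017) was no longer called without the second WT Flt3+ array or without either Irf8KO Flt3+ array.

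Neat1 read 2.35 and 2.35 in WT Flt3+, 2.26 and 2.30 in WT Flt3-, 2.45 and 2.43 in Irf8KO Flt3+ and 3.21 and 3.24 in Irf8KO Flt3- cells. The Irf8KO Flt3- arrays stood above the other 6. Neat1 was 1.93-fold higher in Irf8KO than in WT Flt3- cells (adjusted p = 0.000378), and its log2 difference in Flt3+ cells was 0.09 ± 0.0441 (adjusted p = 0.233). The interaction was -0.86 ± 0.0624 (adjusted p = 0.00368). One of the Mirt1 probes read 1.05 and 1.07 in WT Flt3+, 0.14 and 0.14 in WT Flt3-, 1.08 and 1.06 in Irf8KO Flt3+ and 1.36 and 1.43 in Irf8KO Flt3- cells. The WT Flt3- arrays were the low ones. This probe was 2.39-fold higher in Irf8KO than in WT Flt3- cells (adjusted p = 0.000257), with an interaction of -1.25 ± 0.0679 (adjusted p = 0.00195). A dim second probe of Mirt1 had a log2 genotype difference of 0.22 ± 0.215 in Flt3- cells (adjusted p = 0.48), so the 2 probes did not give the same call.

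**Figure D3:**
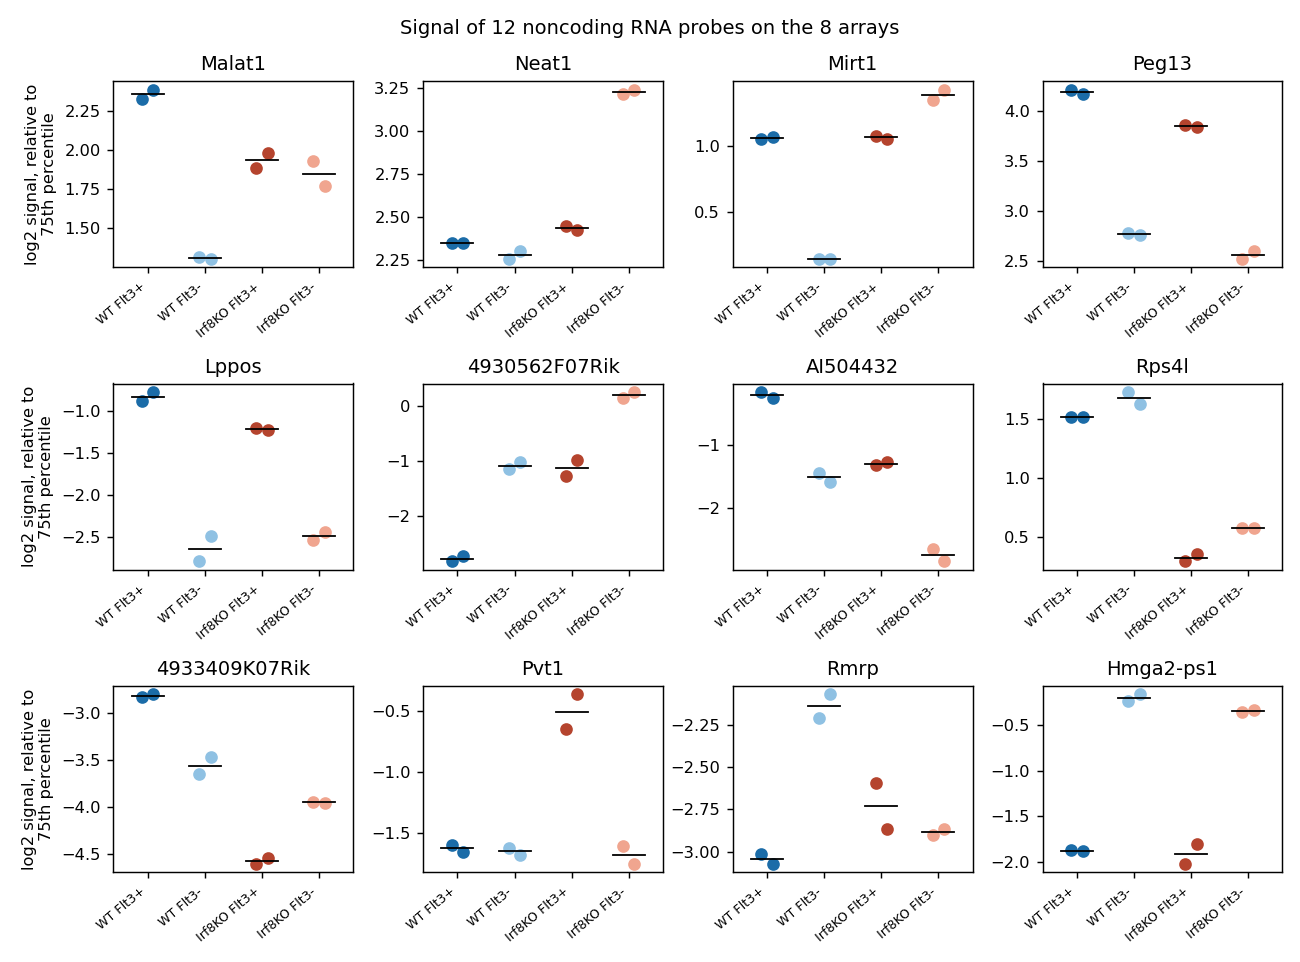
Log2 signal relative to the array's 75th percentile (y axis) of 12 noncoding RNA probes on each of the 8 arrays (points) by group (x axis); the line is the mean of the 2 arrays, and each panel has its own scale. Neat1 is high on the 2 Irf8KO Flt3- arrays (3.21 and 3.24), Mirt1 is low on the 2 WT Flt3- arrays (0.14 and 0.14), and Pvt1 is high on the 2 Irf8KO Flt3+ arrays (-0.65 and -0.36).

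Among the 12 tested RNAs of the nuclear lncRNA list, which also holds imprinted and cancer-associated lncRNAs, 4 were higher and 3 lower in WT Flt3+ cells (19.6% and 26.9% of all probes), with a median log2 difference of 0.04 against -0.06 over all probes. Meg3, 1 of the 4, and Mirg are no members, and the Meg3 call was near the threshold (adjusted p = 0.0492). In Flt3- cells 3 were higher (Malat1, Neat1 and Airn) and 3 lower (Peg13, Crnde and Norad) in Irf8KO, against 15.5% and 17.1% of all probes. Of these calls, that of Norad was lost in each of the 8 fits that left out 1 array, that of Airn without any one WT Flt3-, Irf8KO Flt3+ or Irf8KO Flt3- array, and that of Peg13 without either WT Flt3- array, either Irf8KO Flt3+ array or the first Irf8KO Flt3- array. All 3 were also lost under quantile normalization. Crnde, an lncRNA first described in colorectal tumours, read -3.48 and -3.47 in WT Flt3+, -2.59 and -2.63 in WT Flt3-, -3.55 and -3.93 in Irf8KO Flt3+ and -3.82 and -3.32 in Irf8KO Flt3- cells. The WT Flt3- arrays stood above the others. Its log2 difference was -0.86 between WT populations (adjusted p = 0.0151) and -0.96 between genotypes in Flt3- cells (adjusted p = 0.0163). The first call was lost without any one of the 4 WT arrays and the second without either WT Flt3- array. After normexp the differences were -0.52 and -0.30. Norad, a cytoplasmic RNA that binds Pumilio proteins, had 4 probes, of which 1 was called between WT populations (-0.35, adjusted p = 0.00428), and this call was lost under quantile normalization. Airn, the imprinted antisense RNA of the Igf2r locus, was 0.40 higher in WT Flt3+ cells on the log2 scale (adjusted p = 0.0119), a call lost without the second WT Flt3- array.

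The members at least 2-fold different between genotypes in both populations were 4930562F07Rik, AI504432 and Rps4l. 4930562F07Rik read -1.26 and -0.98 in Irf8KO Flt3+ and 0.14 and 0.25 in Irf8KO Flt3- cells, above the WT arrays of the same population. It was 3.13-fold higher in Irf8KO Flt3+ cells (adjusted p = 0.000829) and 2.42-fold higher in Irf8KO Flt3- cells (adjusted p = 0.00154). AI504432 was lower in Irf8KO in both populations, with -0.15 and -0.24 in WT Flt3+, -1.43 and -1.58 in WT Flt3-, -1.31 and -1.27 in Irf8KO Flt3+ and -2.65 and -2.84 in Irf8KO Flt3- cells. The difference was 2.13-fold in Flt3+ cells (adjusted p = 0.00152) and 2.36-fold in Flt3- cells (adjusted p = 0.000995). The log2 difference of -1.24 in Flt3- cells was -0.67 after normexp background correction. A second AI504432 probe was 2.74-fold lower in Irf8KO Flt3- cells, and its log2 difference was -0.62 after normexp.

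Rps4l, a pseudogene-like copy of the ribosomal protein gene Rps4x, read 1.52 and 1.52 in WT Flt3+, 1.73 and 1.63 in WT Flt3-, 0.30 and 0.36 in Irf8KO Flt3+ and 0.58 and 0.58 in Irf8KO Flt3- cells. All 4 Irf8KO arrays lay below all 4 WT arrays. So they did in the sums of the erythroid markers (3.37 to 3.96 against 19.6 to 44.1) and of the megakaryocyte and platelet markers (3.91 to 4.74 against 6.90 to 12.8). In the monocyte sum they lay above the WT arrays (123 to 129 against 64.2 to 73.6). The part of these markers in the genotype differences was not tested. Rps4l was 2.28-fold lower in Irf8KO Flt3+ cells (adjusted p = 0.000265) and 2.14-fold lower in Irf8KO Flt3- cells (adjusted p = 0.000444). 4933409K07Rik, a transcribed pseudogene, was the member lowest by difference in Irf8KO Flt3+ cells among those called, with -2.83 and -2.80 in WT and -4.60 and -4.54 in Irf8KO. The log2 difference of -1.76 (adjusted p = 0.000199) was -0.49 after normexp, and a second probe of the gene had -0.04 ± 0.0802 (adjusted p = 0.777). Pvt1, the lncRNA next to the Myc oncogene, read -1.60 and -1.65 in WT Flt3+, -1.62 and -1.68 in WT Flt3-, -0.65 and -0.36 in Irf8KO Flt3+ and -1.60 and -1.75 in Irf8KO Flt3- cells. The Irf8KO Flt3+ arrays were high. This probe was 2.18-fold higher in Irf8KO than in WT Flt3+ cells (adjusted p = 0.00274), with an interaction of 1.15 ± 0.152 (adjusted p = 0.0105), a call lost with no filter on dim probes. The other Pvt1 probe had a log2 difference of 0.39 ± 0.098 (adjusted p = 0.0512).

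In Flt3- cells the other members at least 2-fold higher in Irf8KO were 9330159M07Rik (1.03, adjusted p = 0.0023), 1700042G15Rik (1.03, adjusted p = 0.0154) and an RNA whose accession was not matched (1.08). The 1700042G15Rik call was lost without the first WT Flt3- array or either Irf8KO Flt3- array, and its difference was 0.56 after normexp. The genotype comparisons in Flt3+ and in Flt3- cells use no array in common. Of the members, 32 were called in both, 58.2% of those called in Flt3+ and 22.7% of those called in Flt3- cells, and 22 of the 32 had the same direction. Over all probes tested the shares were 59.3% and 30.3%, and 2605 of 3224 had the same direction. Across the 396 probes the differences correlated with r = 0.30, against 0.41 over all probes tested.

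**Figure D4:**
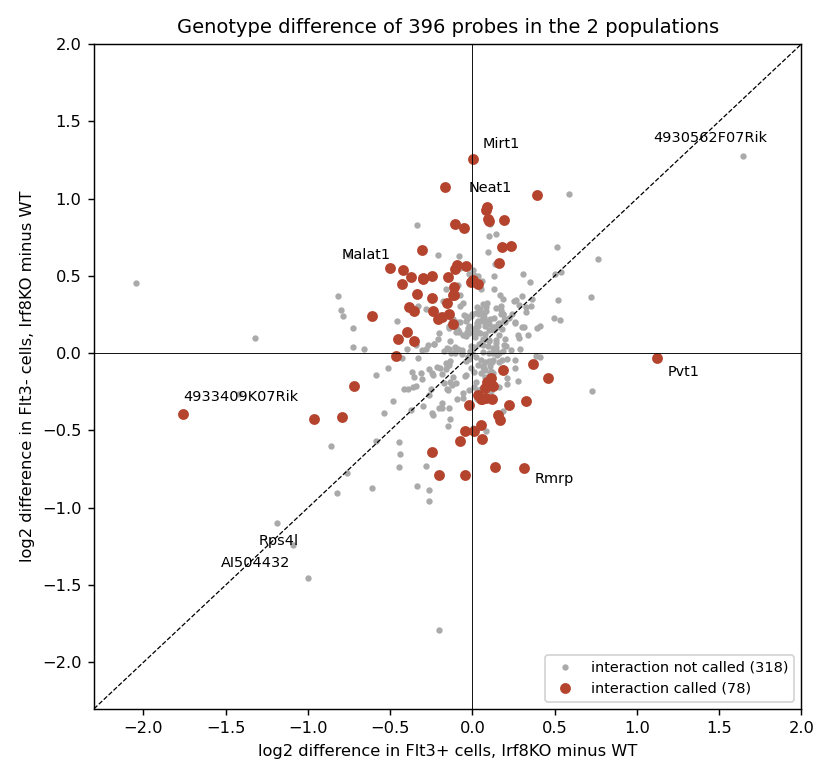
Log2 difference between Irf8KO and WT in Flt3+ cells (x axis) and in Flt3- cells (y axis) for the 396 probes; red points are the 78 probes whose interaction was called, grey the other 318, and the dashed line marks equal differences. 4930562F07Rik lies near the line in the upper right and AI504432 and Rps4l in the lower left, while Mirt1 and Neat1 lie near 0 on the x axis and Pvt1 near 0 on the y axis.

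Of 12 tested snoRNA host genes, of which Taf1d and Cwf19l2 are no members, 2 were higher and 4 lower in WT Flt3+ cells. Over all probes 19.6% were higher and 26.9% lower. The median log2 difference of the hosts was -0.12, against -0.06 over all probes. Among the 4 lower, the Snhg1 call (-0.16) was lost in 6 of 8 fits that left out 1 array, under quantile normalization and under normexp. The Snhg17 call was lost in 1 such fit and that of Snhg12, among the 2 higher, in 4. Snhg3, host of the H/ACA snoRNAs Snora73a and Snora73b, read 3.49 and 3.61 in WT Flt3+, 4.24 and 4.27 in WT Flt3-, 3.44 and 3.51 in Irf8KO Flt3+ and 3.70 and 3.67 in Irf8KO Flt3- cells, so that the WT Flt3- arrays were the high ones. It was 1.63-fold lower in WT Flt3+ than in WT Flt3- cells (adjusted p = 0.000393) and 1.48-fold lower in Irf8KO than in WT Flt3- cells (adjusted p = 0.00243). 2410006H16Rik, another host, was higher in WT Flt3+ cells by 0.42 (adjusted p = 0.0016), and Dancr was lower by -0.38 (adjusted p = 0.00663). Snhg1 had a log2 difference of 0.37 in Irf8KO Flt3+ cells against WT (adjusted p = 0.00671), lost without the first Irf8KO Flt3+ array.

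Rmrp read -3.02 and -3.07 in WT Flt3+, -2.21 and -2.07 in WT Flt3-, -2.59 and -2.87 in Irf8KO Flt3+ and -2.90 and -2.87 in Irf8KO Flt3- cells. It was 1.87-fold lower in WT Flt3+ than in WT Flt3- cells (adjusted p = 0.00112) and 1.67-fold lower in Irf8KO than in WT Flt3- cells (adjusted p = 0.00495), and the interaction was 1.06 ± 0.145 (adjusted p = 0.0113). After normexp the genotype difference in Flt3- cells moved from -0.74 to -0.33 on the log2 scale and the interaction to 0.64, and the interaction was no longer called with no filter on dim probes. WT Flt3- cells were thus the group with the high Rmrp and Snhg3 signal. They were also the group with the highest sum of eosinophil, basophil and mast cell markers (133 to 134). That sum was 65.6 to 66.0 in Irf8KO Flt3-, 16.1 to 16.6 in WT Flt3+ and 6.69 to 6.97 in Irf8KO Flt3+ cells. The part of these markers in the Rmrp and Snhg3 signal was not tested. The spliceosomal RNA Rnu12 had log2 differences between -0.07 and 0.01 in the 4 pairwise comparisons, and Terc, the RNA template of telomerase, passed the threshold in none of the comparisons. Rnu2-10, another spliceosomal RNA, was lower in Flt3+ cells of WT (-0.30, adjusted p = 0.00613) and of Irf8KO mice (-0.29, adjusted p = 0.0103). The second call was lost in 2 of 8 fits that left out 1 array, and with no filter on dim probes.

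The proteins that work with these RNAs are no members, and their lists were set beside them. Alternative processing was not run for these lists. Under quantile normalization the bright members Norad, Snhg3 and 2410006H16Rik moved between WT populations from -0.35, -0.70 and 0.42 to -0.10, -0.46 and 0.66. The bearing of such shifts on the protein lists was not tested. Of all probes 19.6% were higher and 26.9% lower between WT populations, and 15.5% and 17.1% between genotypes in Flt3- cells. In these and the other gene lists, however, the brightest probe stood for each gene. When 1 probe per named gene was fitted, 8634 of 14110 were called between WT populations and 6237 between genotypes in Flt3- cells. Those shares are larger than the shares over all probes, so list counts stand out less against them. Of 15 box C/D and H/ACA snoRNP proteins, 1 was higher and 13 lower in WT Flt3+ than in WT Flt3- cells (median log2 difference -0.36, against -0.06 over all probes), and 1 was higher and 13 lower in Irf8KO than in WT Flt3- cells (median -0.37, against 0.03). In Flt3+ cells 1 was higher and 0 lower in Irf8KO. Nolc1, a nucleolar chaperone of snoRNPs, was -0.67 ± 0.0486 between WT populations and -0.65 ± 0.0486 between genotypes in Flt3- cells, and Nhp2, a core H/ACA protein, was -0.58 and -0.45. Of 10 proteins of RNase P and RNase MRP, 7 were lower and 0 higher in each of these comparisons, among them Pop1 (-0.59 and -0.37) and Rpp30 (-0.50 and -0.56). Of 20 nuclear exosome proteins, which degrade and trim nuclear RNA, 14 were lower and 1 higher between WT populations, and 11 lower and 2 higher between genotypes in Flt3- cells. Of 16 paraspeckle and nuclear speckle proteins, 9 were lower and 1 higher, and 8 lower and 0 higher. In those 2 comparisons, Malat1, an RNA of the speckles, had 1.04 and 0.54, and Neat1, the RNA of the paraspeckles, 0.07 and 0.95. The 2 comparisons share the WT Flt3- arrays. Of 14 microRNA biogenesis proteins, 2 were higher and 3 lower between WT populations, of 13 nonsense-mediated decay factors 2 and 5, and of 8 proteins of the 7SK complex 0 and 0.

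Mir17hg, the host of an oncogenic microRNA cluster, read 1.71 and 1.80 in WT Flt3+, 1.66 and 1.81 in WT Flt3-, 1.91 and 1.92 in Irf8KO Flt3+ and 1.58 and 1.46 in Irf8KO Flt3- cells. The WT groups overlapped. The log2 difference between Irf8KO populations was 0.40 (adjusted p = 0.0109), lost without either Irf8KO Flt3+ array or the second Irf8KO Flt3- array. Lockd, an lncRNA downstream of the cell cycle inhibitor gene Cdkn1b, read 2.71 and 2.72 in WT Flt3+, 2.43 and 2.37 in WT Flt3-, 3.05 and 3.04 in Irf8KO Flt3+ and 2.10 and 2.09 in Irf8KO Flt3- cells. The Irf8KO arrays lay outside the WT arrays on both sides. It was higher in Irf8KO Flt3+ cells by 0.32 (adjusted p = 0.00896) and lower in Irf8KO Flt3- cells, with -0.31 (adjusted p = 0.00575), and the interaction was 0.64 ± 0.0637 (adjusted p = 0.00613).

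Coding neighbours were taken from the RefSeq table, which gives which genes overlap or lie nearest. For 111 pairs of a member and an overlapping coding gene, the log2 differences between WT populations correlated with r = 0.21, for 128 pairs with the nearest coding gene with r = 0.19, and for 13253 pairs of adjacent coding genes with r = 0.12. Of the overlapping pairs with both called, 22 of 32 had the same direction, of the nearest pairs 29 of 44 and of the adjacent coding pairs 2683 of 4433. Overlapping transcripts can share signal, and the files do not state which strand a probe reads.

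In some pairs the RNA and its coding neighbour were each called and each at least 2-fold different between WT populations. These were Lppos and Lpp (1.81 and 1.73), Gm11346 and Ripor2 (1.42 and 1.15), Gm11110 and Tnfsf9 (1.39 and 1.34), Phxr4 and Maml2 (1.35 and 1.45) and AI504432 and Kcna3 (1.31 and 1.13), all higher in WT Flt3+ cells. Tnfsf9 encodes the ligand of the costimulatory receptor 4-1BB, Maml2 a Notch coactivator and Kcna3 a voltage-gated potassium channel. Gm11110 and Tnfsf9 also had 2.02 and 1.92 between Irf8KO populations. After normexp Gm11110 had 0.79 there, and Phxr4 had 0.51 between WT populations. AI504432 and Kcna3 were both lower in Irf8KO, with -1.09 and -0.70 in Flt3+ cells and -1.24 and -0.74 in Flt3- cells. Other pairs, picked after their values were seen, differed. Peg13 had 1.43 where the overlapping Trappc9 had 0.20 ± 0.0452 (adjusted p = 0.0162). 9330179D12Rik had -1.21 between Irf8KO populations where the overlapping cyclin gene Ccnd2 had 0.51 ± 0.0434 (adjusted p = 0.00056). Myc, next to Pvt1, had 0.50 ± 0.0577 between genotypes in Flt3+ cells (adjusted p = 0.00499).

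**Figure D5:**
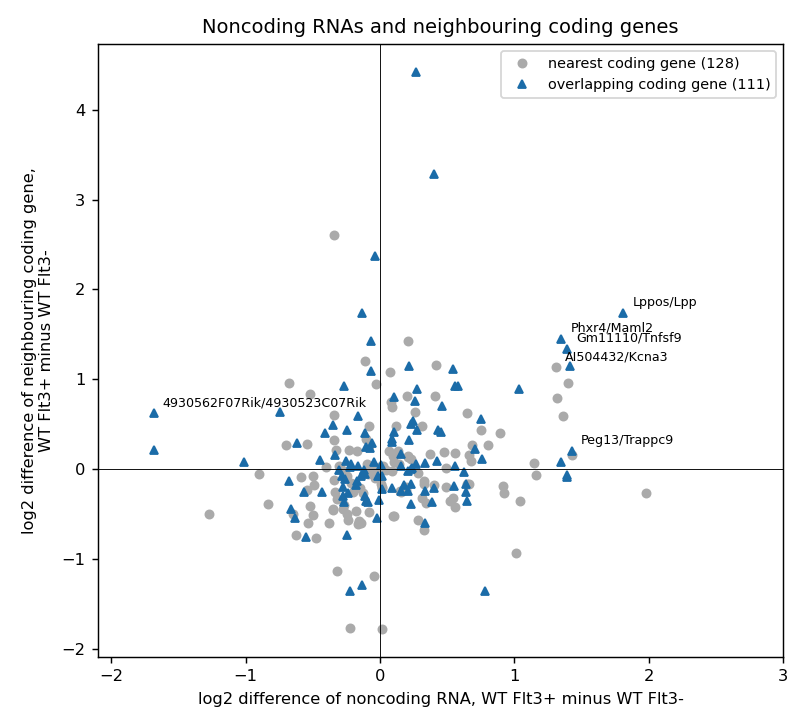
Log2 difference between WT Flt3+ and WT Flt3- cells of each noncoding RNA (x axis) and of its coding neighbour (y axis), for 111 pairs that overlap (blue triangles) and 128 with the nearest coding gene (grey circles). Lppos with Lpp (1.81 and 1.73) lies in the upper right.

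Transcribed pseudogenes share sequence with their parents, so that a probe may read both and the values are uncertain in that respect. Of the members, 17 probes had a named parent that was measured. Hmga2-ps1 and its parent Hmga2 went opposite ways, at -1.68 and 1.56 between WT populations and -1.57 and 2.21 between Irf8KO populations. Gpr137b-ps had 1.37 and 1.01 on 2 probes where the parent Gpr137b, a lysosomal membrane protein gene, had 1.76. Hmgb1-rs17 and Hmgb1, a chromatin protein gene, had -0.47 and -0.51 between genotypes in Flt3- cells. Pisd-ps3 had 0.85 in that comparison and its parent Pisd, a mitochondrial phospholipid enzyme gene, 0.58. Pisd-ps2, of the same parent, had -0.08 there, and between Irf8KO populations it had 0.49 where Pisd had -0.49.

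Probes for one RNA did not always give the same value. Of 42 RNAs with several member probes, 15 had all probes called between WT populations, 13 had none and 14 had some. Called in opposite directions within an RNA were Gm5523 (-0.55 to 0.19 between WT populations), Gm6981 (-0.29 to 0.20 between genotypes in Flt3- cells), Smarca5-ps (-0.73 to 0.47 in the same comparison, and -0.32 to 0.41 between Irf8KO populations) and Thap6 (-0.36 to 0.39 between Irf8KO populations). These 4 were named after their values were seen. The parent of Smarca5-ps, the chromatin remodeller gene Smarca5, had -0.31 between genotypes in Flt3- cells.

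Among all 103 called values of named RNAs, 69 kept the call in every fit that left out 1 array, as did 50 of the 53 that were at least 2-fold. After normexp background correction 52 of these 53 kept the call, but 26 moved by over 1.5 times, the dim probes among them. The detection limit ran through the members, since the 12 dimmest had mean log2 signals from -4.69 to -4.22, and the 12 probes above background on 7 of 8 arrays had -4.80 to -3.90.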

How the data were processed

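Per the labels, RNA was purified on RNeasy Micro columns and labelled with Cy3 after low-input amplification. Per the file headers, the authors deposited spot intensities from Agilent Feature Extraction 10.7.3.1 (grid build mm9), a linear processed signal with background already subtracted, together with median spot and background intensity and flags (0 or 1) for detection and outliers. In the authors' deposited series table the intensities are the same ones multiplied by 1 factor per array (0.672 to 1.33), as a comparison of the values showed, linear and not centred, with column medians from 26.9 to 29.9. Control and outlier spots were left out, spots of a probe were averaged, and log2 of the intensity minus log2 of the array's 75th percentile was taken. The 32673 probes that both arrays of any 1 group detected were fitted in limma 3.58.1 (R 4.3.3), with 1 mean for each of 4 groups, eBayes (4 residual and 1.56 prior degrees of freedom) and Benjamini-Hochberg adjustment over all probes for each comparison. No member had a missing value. Members, lists and naming rules were chosen with earlier results of these data known: the text names the up to 10 called members in each direction at least 2-fold changed, the 5 largest interactions in each direction, lists of known noncoding RNAs, neighbour pairs and, for protein lists, up to 4 of the genes changed most. Accessions were named through RefSeq (GRCm38.p6). Alternatives changed the scaling, background correction, filter, block, fitted groups and arrays. The number of arrays limits the precision. The fit was tested on simulated data.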

Additional observations from a re-analysis of the deposited data

Results flagged for a closer look

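The genotype difference itself differed between Flt3+ and Flt3- cells, by the interaction term of limma, for 18 probes of named or listed RNAs. The interaction is the log2 genotype difference in Flt3+ cells minus that in Flt3- cells. It was negative for 4933409K07Rik (-1.37), Mirt1 (-1.25), an RNA of unmatched accession (-1.24), 4831440E17Rik (-1.05), Gm11346 (-0.97), Malat1 (-0.96), Neat1 (-0.86), Gm12216 (-0.64), 9330159M07Rik (-0.63) and both probes of Gm4759 (-0.54 and -0.75). It was positive for Pvt1 (1.15), Rmrp (1.06), 2810408I11Rik (0.87), the pseudogene Gm13315 (0.74), Lockd (0.64), Snhg3 (0.49) and Snhg1 (0.44).

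The Gm11346 call was lost in 7 of 8 fits that left out 1 array, all except that without the first WT Flt3- array, the Snhg3 call in 6 (the WT Flt3-, Irf8KO Flt3+ and Irf8KO Flt3- arrays), and the 4831440E17Rik and Snhg1 calls in 4 each (the WT Flt3- and Irf8KO Flt3+ arrays). After normexp the interaction was -0.51 for 4933409K07Rik and -0.23, no longer called, for Gm11346. With no filter on dim probes the calls of Pvt1, Rmrp, 4831440E17Rik, Gm11346, Snhg3 and Snhg1 were lost. Gm13315 read 4.49 and 4.52 on the WT Flt3- arrays and between 3.68 and 3.78 on the other 6. 2810408I11Rik read 1.59 and 1.61 on the WT Flt3- arrays and 0.88 and 0.85 on the Irf8KO Flt3- arrays, and between 0.28 and 0.53 on the Flt3+ arrays.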

How the results depend on the processing

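The counts of members called kept within 1.5 times of the values given under quantile normalization, normexp, the filter on all 8 arrays, the series table's scaling, 1 probe per named gene, and members with a matched accession only, an alternative chosen after seeing the data. The last 2 tested 294 and 353 members, not 396, so their counts are not like shares. With 1 probe per named gene, the genotype difference in Flt3+ cells was called for 66 of 294 members and 4039 of all 14110 genes, against 55 of 396 members. With no filter on dim probes the counts were 18 (genotype in Flt3+ cells), 66 (genotype in Flt3- cells), 94 (Irf8KO populations) and 12 (interaction). For genotype in Flt3+ cells the count was 24 with only the groups compared and 89 with an intensity trend. The causes were not tested. With experiment number as a replicate block, the counts were 176, 41, 131, 148 and 59 for WT populations, genotype in Flt3+ cells, genotype in Flt3- cells, Irf8KO populations and interaction, and deviations of same-numbered arrays from their group means correlated with r from -0.014 to 0.095, so pairing rests on a shared number alone. Leaving out 1 array gave 132 to 179, 19 to 46, 67 to 147, 96 to 167 and 22 to 65 in that order. Counts moved by over 1.5 times as follows. For genotype in Flt3+ cells the count was 33 without either WT Flt3- array and 19 without either Irf8KO Flt3+ array. For genotype in Flt3- cells it was 73 and 67 without the first and the second WT Flt3- array and 75 without the first Irf8KO Flt3- array. For Irf8KO populations it was 98 and 96 without the first and the second Irf8KO Flt3+ array. For the interaction it was 23 and 33 without the first and the second WT Flt3- array, 26 and 22 without the Irf8KO Flt3+ arrays, 51 and 40 without the Irf8KO Flt3- arrays and 51 without the first WT Flt3+ array. No called value of a named RNA changed sign. Of 103 such values, 30 lost the call with no filter, 10 each under quantile normalization and normexp, and 4 under the block. The slide as a block was not run, because there was 1 slide. Dim probes near background have the least reliable differences.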
